A study of Mus musculus with 6 samples.

Results

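Most of the 36 genes described here encode soluble enzymes that break down carbohydrates, lipids, sulfated sugars, phosphate esters, peptides and DNA in the lysosome. The others include the membrane-anchored hyaluronidase HYAL2, the largely secreted fucosidase FUCA2, the accessory proteins GM2A and PSAP and the cholesterol transporters NPC1 and NPC2. All 36 were chosen by name. A gene was measured if a probe set of the array was annotated to it alone, and of several such probe sets the brightest on average over the 6 arrays was used. This left 34 measured genes among 12393 on the array, and Aga and Arsb, which encode aspartylglucosaminidase and arylsulfatase B, were not analysed here. Levels were deposited log2 values from Affymetrix MOE430A arrays of CD11c+ cells that had been bead-selected from the spleens of untreated C57BL/6J mice at 8 weeks of age. The groups were 3 arrays from wild-type mice and 3 from Atg16L1 hypomorphic mice, which carry an allele of reduced function in a gene needed for attaching LC3 to autophagosome membranes. How that allele was made, in which cells it acts and whether each array came from an animal of its own are not given in the labels, so the p-values speak only of spread among these arrays, which may be technical. In the title of wild-type replicate 1, the number after the sample name differs from that of the other 5. A different array version stands in the title of wild-type replicate 3. What either marks is not stated, and without those arrays 20 and 16 of the genes below were called higher (8.92% and 8.00% of all genes), against 19 (9.76%) with all arrays.

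Lysosomal hydrolases are made in the endoplasmic reticulum, most are tagged with mannose 6-phosphate in the Golgi, and receptors carry them to endosomes, where the low pH releases and activates them. Autophagosomes, phagosomes and endosomes all deliver their contents to this compartment. Inherited loss of a single one of these enzymes usually leaves its substrate stored in lysosomes, and many of the genes below are known from such storage diseases. Macrophages hold large amounts of these enzymes, while dendritic cells are known for slower lysosomal degradation, which preserves antigen for presentation.

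The labels were checked first. Atg16l1 was at 7.05, 7.11 and 7.04 in wild type and at 6.13, 5.84 and 6.11 in the hypomorph, so the groups did not overlap. The dendritic cell genes Itgax, which encodes CD11c, and Flt3 stood at 10.32 ± 0.13 and 9.94 ± 0.17 (SD, n = 3) in wild type and at 9.94 ± 0.07 and 9.62 ± 0.10 in the hypomorph. Macrophage markers were present in both groups and higher in the hypomorph. Of 19 measured, 18 rose and 0 fell. Counts of genes that rose (higher) or fell (lower) are taken at an adjusted p under 0.05 with limma. By that measure 9.76% of all genes rose and 8.47% fell. The mean level of the 19 macrophage markers ran from 8.28 to 8.97 over the wild-type arrays and from 10.29 to 10.41 over the hypomorph arrays. Vsig4 was at 4.22 ± 0.28 and 5.79 ± 0.03, while Adgre1 (F4/80) was at 9.21 ± 0.36 and 11.32 ± 0.03 and Cd5l at 9.98 ± 0.37 and 11.91 ± 0.09. The 10 conventional dendritic cell markers had a mean of 9.85 ± 0.09 and 9.80 ± 0.07, with 2 higher and 3 lower. Those higher were Sirpa and Xcr1 (log2 changes of 0.96 and 0.46), and those lower were Itgax, Zbtb46 and Ciita (-0.37, -0.63 and -0.93). B cell markers fell in 5 of 7 cases and stromal and endothelial markers in 4 of 9. The 24 poly-A spike-in probe sets, bacterial transcripts that monitor labelling, averaged 9.48 ± 0.50 in wild type and 7.69 ± 0.18 in the hypomorph, and the 3' minus 5' difference of beta-actin was 0.97 ± 0.04 and 0.74 ± 0.04 (two-sided exact permutation p = 0.1 for either, the lowest value possible with 3 arrays a group). The 18 hybridization control probe sets averaged 11.35 ± 0.28 in wild type and 10.33 ± 0.06 in the hypomorph. For the 3 probe sets of 18S ribosomal RNA the averages were 9.43 ± 0.21 and 8.76 ± 0.06 (p = 0.1 for either in the same permutation test). The part of cell composition, RNA quality, labelling and hybridization in the results below was not tested. In a bulk sample more cells of a type and more RNA per cell cannot be told apart.

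**Figure D1:**
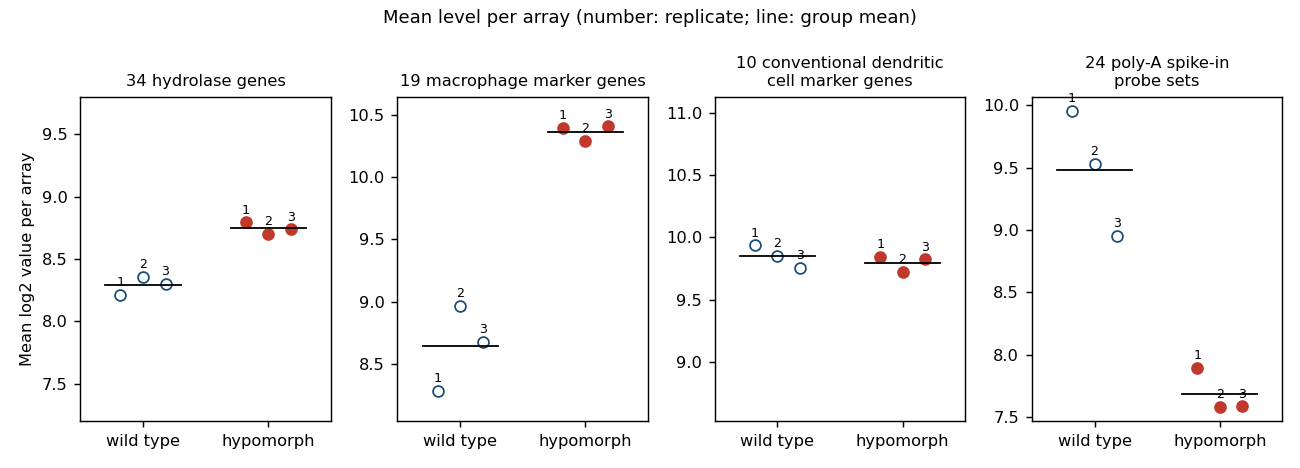
Mean log2 value on each array for the 34 measured hydrolase genes, the 19 macrophage markers, the 10 conventional dendritic cell markers and the 24 poly-A spike-in probe sets; points are arrays numbered by replicate, lines are group means, and all vertical axes span the same range. The hydrolase means lie between 8.21 and 8.35 in wild type and between 8.70 and 8.79 in the hypomorph, a smaller step than that of the macrophage markers, while the dendritic cell markers overlap and the spike-ins are lower in the hypomorph.

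Hydrolase transcripts were higher in the hypomorph. Of the 34 measured genes, 19 rose and 0 fell with limma at an adjusted p under 0.05, where 9.76% of all genes rose and 8.47% fell, and 1 hydrolase gene (Dnase2a) had an unadjusted p under 0.05 in the downward direction. The median log2 change was 0.37, against -0.05 over all genes. In 25 of the 34 genes all 3 hypomorph arrays lay above all 3 wild-type arrays and in 0 all lay below, against 18.5% and 22.5% of all genes. The rises ran from 1.25-fold for Man2b1 to 3.66-fold for Pla2g15, 10 of them at least 1.5-fold and 5 at least 2-fold. Over all genes 5.21% rose and 2.68% fell by at least 1.5-fold.

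The count depended on single arrays and on whether the spike-in signal was in the model. Leaving out hypomorph replicate 3 lowered it to 12, and leaving out any other array gave 13 to 20. Calls over all genes fell as well, to 4.44% higher without hypomorph replicate 3 and to 4.88% and 4.91% without replicates 1 and 2. Without any 1 array, 12 of the 19 genes kept their call. These were Acp2, Acp5, Asah1, Ctsa, Fuca2, Galc, Glb1, Hexa, Lipa, Naglu, Npc1 and Pla2g15, whose adjusted p was at most 0.045 in those fits. When the average spike-in signal of each array entered the model as a covariate, limma called 0 of the 34 genes and 0 of all genes. At an unadjusted p under 0.05 there were 9 of the 34 and 1149 of all genes. Of the 9, 8 were among the 19 called above, and the other was Gla, with a negative change (-3.39). In that fit 18 of the 19 changes stayed positive. Standard errors grew 2.99-fold at the median gene of the 34, and the adjusted p of the 19 lay between 0.457 and 0.974. The spike-in signal did not overlap between the groups (8.95 to 9.96 in wild type, 7.58 to 7.90 in the hypomorph). A fit with this covariate therefore cannot separate it from genotype.

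**Figure D2:**
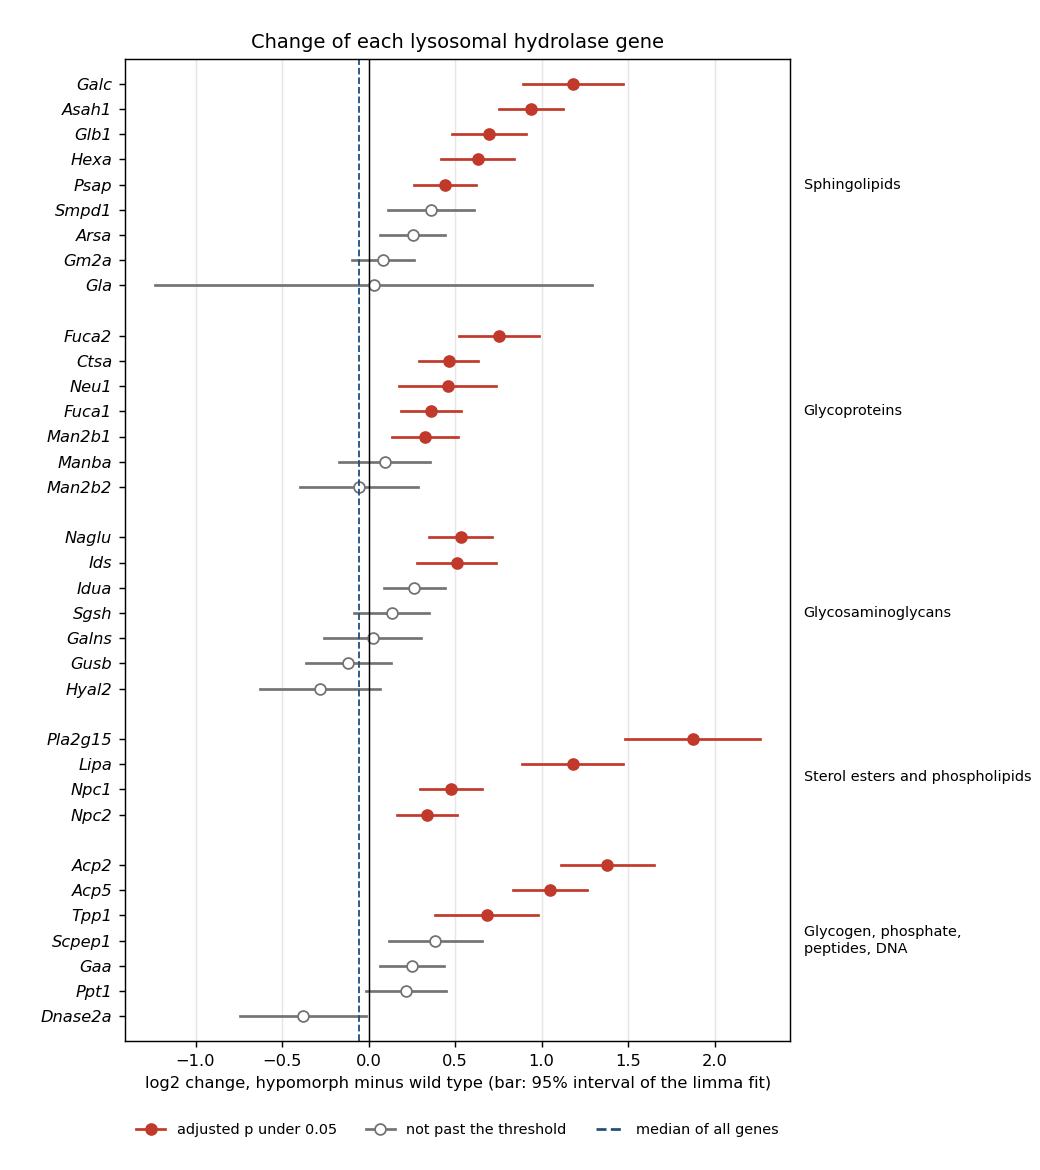
Log2 change of each measured hydrolase gene, hypomorph minus wild type, grouped by substrate; points are limma estimates, bars their 95% intervals, filled points have an adjusted p under 0.05, and the dashed line is the median of all genes at -0.05. The 4 genes for sterol esters and phospholipids all rose, led by Pla2g15 at 1.87, whereas 5 of the 7 genes for glycosaminoglycans did not pass.

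Because many lysosomal promoters carry an E-box known as the CLEAR element, bound by the transcription factor TFEB, the promoters were searched for its letters. A RefSeq table of mouse promoters (GRCm38.p6, 250 bases before to 50 after each start) held 32 of the 36 genes, and Aga, Asah1, Galns and Npc1 had no entry. The palindromic core CACGTG lay in the promoter of 7 of the 32 genes (21.9%), against 8.09% of the 27025 genes in the table. All 7 had the longer form TCACGTG on one of the strands, which 4.29% of all genes held and which was chosen after the flanks had been seen. The 8-base form TCACGTGA lay in 2 (6.25%, against 1.12% of all genes) and the full CLEAR consensus, which adds a G before and a C after that form, in 0, against 0.37%. Both strands were searched. Each longer form contains the core, so these matches overlap. The core matches before the start are shown with 12 bases on either side, 5' to 3' on the strand of the gene, with CACGTG in capitals.
Ctsa, chr2:164833749-164833778, plus strand: tgagcaaactgtCACGTGatgcagatgctc
Glb1, chr9:114401018-114401047, plus strand: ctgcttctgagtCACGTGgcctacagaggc
Naglu, chr11:101070009-101070038, plus strand: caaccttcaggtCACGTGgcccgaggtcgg
Gaa, chr11:119267811-119267840, plus strand: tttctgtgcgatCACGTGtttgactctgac
Sgsh, chr11:119355522-119355551, minus strand: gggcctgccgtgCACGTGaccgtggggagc
Arsa, chr15:89477423-89477452, minus strand: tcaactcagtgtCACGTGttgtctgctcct
Gla, chrX:134601215-134601244, minus strand: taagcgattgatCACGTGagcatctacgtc
Gla, chrX:134601182-134601211, minus strand: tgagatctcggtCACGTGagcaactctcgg
The core begins 12 bases before the start in Ctsa, 16 in Arsa, 29 in Sgsh, 48 in Glb1, 73 in Naglu and 140 in Gaa, and Gla has a pair of copies, at 227 and 194 bases before it. Ctsa carries a further copy just after the start. Of the 7 genes that hold the core, 3 rose (Ctsa, Glb1 and Naglu), with a median change of 0.26. Among 24 other measured genes with a promoter entry, 14 rose, with a median of 0.37, and the difference was not tested. The genes with the largest and second largest rise, Pla2g15 and Acp2, had no CACGTG in the window. Their 250 bases before the start are shown for comparison, with a GC content of 58.8% and 57.2%.
Pla2g15, chr8:106150104-106150353, plus strand: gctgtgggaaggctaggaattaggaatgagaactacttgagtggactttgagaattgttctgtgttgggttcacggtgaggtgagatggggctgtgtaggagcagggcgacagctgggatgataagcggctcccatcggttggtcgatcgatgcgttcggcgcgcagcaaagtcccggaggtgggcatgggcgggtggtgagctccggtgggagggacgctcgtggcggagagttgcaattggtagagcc
Acp2, chr2:91202662-91202911, plus strand: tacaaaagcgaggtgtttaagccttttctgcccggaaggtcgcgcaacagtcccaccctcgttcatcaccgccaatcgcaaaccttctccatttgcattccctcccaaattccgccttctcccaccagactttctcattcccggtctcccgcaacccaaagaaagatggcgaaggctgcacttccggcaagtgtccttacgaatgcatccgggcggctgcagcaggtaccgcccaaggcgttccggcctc
A match is a description of these letters, not of binding.

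Enzymes and activators of sphingolipid breakdown take complex lipids apart one sugar or acyl chain at a time. Of these 9 genes, 5 rose and 0 fell, with a median change of 0.44, and in 7 the groups did not overlap. Galc (probe set 1452907_at), the galactosylceramidase whose loss causes Krabbe disease, was at 6.37, 6.79 and 6.54 in wild type and at 7.87, 7.66 and 7.71 in the hypomorph. All hypomorph arrays were above all wild-type arrays, a 2.27-fold rise (log2 change 1.18, SE 0.123, adjusted p = 0.00209). Asah1 (probe set 1416735_at), acid ceramidase, had the tightest hypomorph values of this group, 11.05, 11.06 and 11.05, against 10.02, 10.22 and 10.11 in wild type. It rose 1.92-fold (log2 change 0.94, SE 0.079, adjusted p = 0.00137).

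Glb1 (probe set 1416205_at), lysosomal beta-galactosidase, was at 6.86, 7.04 and 6.98 in wild type and 7.78, 7.62 and 7.58 in the hypomorph, a rise of 1.62-fold. Hexa (probe set 1449024_a_at), the alpha subunit of beta-hexosaminidase, which is mutated in Tay-Sachs disease, was at 10.43, 10.68 and 10.60 and at 11.22, 11.15 and 11.23, a rise of 1.55-fold. Adjusted p-values were 0.00437 and 0.00572. Psap, the precursor of the saposins that lift lipids out of membranes for the enzymes, was at 12.46, 12.51 and 12.36 in wild type and at 12.90, 12.85 and 12.91 in the hypomorph. Its 1.36-fold rise (adjusted p = 0.0109) was not called without hypomorph replicate 3 (adjusted p = 0.0603) or after quantile normalization (log2 change 0.22, adjusted p = 0.156).

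The other sphingolipid genes did not pass. Smpd1, acid sphingomyelinase, and Arsa, the sulfatase that acts on sulfatide, had changes of 0.36 (95% interval 0.11 to 0.61, adjusted p = 0.0554) and 0.26 (0.07 to 0.44, adjusted p = 0.0666), with groups that did not overlap. Gm2a, the GM2 activator that presents its ganglioside to HEXA, was at 12.10 ± 0.07 and 12.19 ± 0.06, with an interval for the change of -0.10 to 0.26. Gla, alpha-galactosidase A, could not be judged. Its wild-type values were 4.48, 6.04 and 6.82, the widest spread of the 34 genes, around hypomorph values of 6.01, 5.82 and 5.59, so the interval ran from -1.23 to 1.29. Without wild-type replicate 1, the lowest array, its change was -0.62 (adjusted p = 0.145).

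Among 7 measured genes for glycoprotein sugars, 5 rose and 0 fell, with a median of 0.36. Fuca2 (probe set 1416046_a_at), an alpha-L-fucosidase that is largely secreted, rose most, from 8.13, 7.87 and 8.16 to 8.84, 8.75 and 8.83 (1.69-fold, SE of the log2 change 0.098, adjusted p = 0.00438), and its lysosomal relative Fuca1 rose 1.28-fold, from 9.90, 9.98 and 9.90 to 10.23, 10.28 and 10.34. Ctsa, the protective protein that holds beta-galactosidase and sialidase in a complex, was at 10.10, 10.06 and 10.05 in wild type and at 10.60, 10.49 and 10.50 in the hypomorph. It rose 1.38-fold (adjusted p = 0.00804). Its partner in that complex, the sialidase gene Neu1, rose 1.37-fold, from 6.54, 6.96 and 6.86 to 7.18, 7.24 and 7.32, so all 3 genes of the complex were higher. Man2b1, lysosomal alpha-mannosidase, rose 1.25-fold, from 11.41, 11.37 and 11.22 to 11.70, 11.61 and 11.67.

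The calls of the smaller of these rises needed all 3 hypomorph arrays. Adjusted p-values were 0.0181 for Fuca1, 0.04 for Neu1 and 0.035 for Man2b1. The calls of Fuca1, Neu1 and Man2b1 did not survive the loss of any 1 hypomorph array, that of Neu1 also without wild-type replicate 3 and that of Man2b1 also without wild-type replicate 2 or 3. In the fits without them the adjusted p was 0.0529 to 0.0872 for Fuca1, 0.0697 to 0.136 for Neu1 and 0.052 to 0.122 for Man2b1. The size of the rises changed little when 1 hypomorph array was left out. Log2 changes were then 0.33 to 0.39 for Fuca1, 0.42 to 0.49 for Neu1 and 0.31 to 0.35 for Man2b1. After quantile normalization Man2b1 changed by 0.20 and did not pass (adjusted p = 0.159). Manba, beta-mannosidase, and Man2b2, another alpha-mannosidase, had changes of 0.09 (interval -0.17 to 0.35) and -0.05 (-0.39 to 0.29), and their groups overlapped.

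Glycosaminoglycan enzymes, which clip heparan, dermatan, keratan and chondroitin sulfates and hyaluronan, had 2 of 7 measured genes higher and 0 lower, with a median of 0.13. Naglu (probe set 1417706_at), which removes N-acetylglucosamine from heparan sulfate and is lost in Sanfilippo syndrome type B, was at 6.17, 6.32 and 6.22 in wild type and at 6.71, 6.82 and 6.77 in the hypomorph. It rose 1.45-fold (log2 change 0.53, SE 0.077, adjusted p = 0.00628). Ids, the iduronate sulfatase of Hunter syndrome, rose 1.42-fold, from 5.81, 5.93 and 6.10 to 6.50, 6.40 and 6.47 (adjusted p = 0.0149), and this call was lost without any 1 hypomorph array (adjusted p from 0.0516 to 0.0687).

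Idua, the iduronidase that acts after IDS, had groups that did not overlap and narrowly missed the threshold (change 0.27, interval 0.09 to 0.44, adjusted p = 0.0518). It passed without wild-type replicate 1 (adjusted p = 0.0491). The heparan N-sulfatase gene Sgsh (0.13, interval -0.08 to 0.35), the keratan and chondroitin sulfatase gene Galns (0.02, -0.26 to 0.31) and the membrane-anchored hyaluronidase gene Hyal2 (-0.28, -0.62 to 0.07) had overlapping groups. Gusb, beta-glucuronidase, was at 10.18, 10.08 and 9.85 in wild type and at 9.96, 9.84 and 9.97 in the hypomorph. The interval for its change ran from -0.36 to 0.13 at this probe set, and its other probe set was called higher (change 0.36, adjusted p = 0.0438 over all probe sets).

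All 4 genes for sterol esters, cholesterol and phospholipids rose, with a median of 0.83. Pla2g15 (probe set 1423704_at), the lysosomal phospholipase A2 that is prominent in alveolar macrophages, was at 6.44, 7.01 and 6.64 in wild type and at 8.73, 8.36 and 8.61 in the hypomorph. Its 3.66-fold rise (log2 change 1.87, SE 0.165, adjusted p = 0.00137) was the largest of the 34 genes. Lipa (probe set 1450872_s_at), lysosomal acid lipase, which frees cholesterol and fatty acids from lipoprotein esters, was at 8.65, 9.01 and 9.06 and at 10.14, 9.98 and 10.14, a 2.26-fold rise (log2 change 1.18, SE 0.124, adjusted p = 0.00214).

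The pair of proteins that pass freed cholesterol out of the lysosome changed less. Npc1, the membrane transporter, went from 7.36, 7.48 and 7.49 to 7.98, 7.89 and 7.89 (1.39-fold, adjusted p = 0.00908). Npc2, the lumenal carrier that hands cholesterol to NPC1, went from 11.61, 11.59 and 11.52 to 11.92, 11.85 and 11.97 (1.26-fold, adjusted p = 0.0237). The call for Npc2 was lost without any 1 hypomorph array and without wild-type replicate 3 (adjusted p from 0.0601 to 0.103) and after quantile normalization (change 0.22, adjusted p = 0.0816).

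The remaining 7 genes act on phosphate esters, glycogen, peptides, palmitoylated proteins and DNA, and 3 rose and 0 fell. Acp2 (probe set 1436788_at), lysosomal acid phosphatase, had the smallest p of the 34 genes. It was at 7.54, 7.91 and 7.63 in wild type and at 9.13, 9.10 and 8.98 in the hypomorph, a 2.60-fold rise (log2 change 1.38, SE 0.113, adjusted p = 0.00136). Acp5 (probe set 1431609_a_at), the tartrate-resistant acid phosphatase found in osteoclasts and some macrophages, was at 9.04, 9.27 and 9.21 and at 10.25, 10.27 and 10.14, a 2.07-fold rise (log2 change 1.05, SE 0.09, adjusted p = 0.00137). Tpp1, tripeptidyl peptidase 1, rose 1.60-fold, from 8.62, 9.05 and 8.77 to 9.63, 9.42 and 9.44 (adjusted p = 0.0141). That call was lost without hypomorph replicate 1 or 3 (adjusted p = 0.057 and 0.0534).

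The other 4 genes did not pass. The serine carboxypeptidase gene Scpep1 (0.38, interval 0.12 to 0.65), the acid alpha-glucosidase gene Gaa (0.25, 0.07 to 0.43), which degrades glycogen, and the palmitoyl thioesterase gene Ppt1 (0.22, -0.01 to 0.45) had groups that did not overlap, with adjusted p-values of 0.0579, 0.0662 and 0.167. Dnase2a, the acid DNase with which macrophages digest engulfed nuclei, had the most negative change of all 34 genes. It was at 7.31, 7.20 and 6.72 in wild type and at 6.74, 6.67 and 6.69 in the hypomorph, so wild-type replicate 3 lay among the hypomorph arrays (change -0.38, SE 0.153, adjusted p = 0.132). Without that array the change was -0.56 and passed (adjusted p = 0.0156). Its single probe set is of a type, marked _x_at by the manufacturer, in which some probes can also bind other transcripts. The probe set used for Gaa is of the same type.

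**Figure D3:**
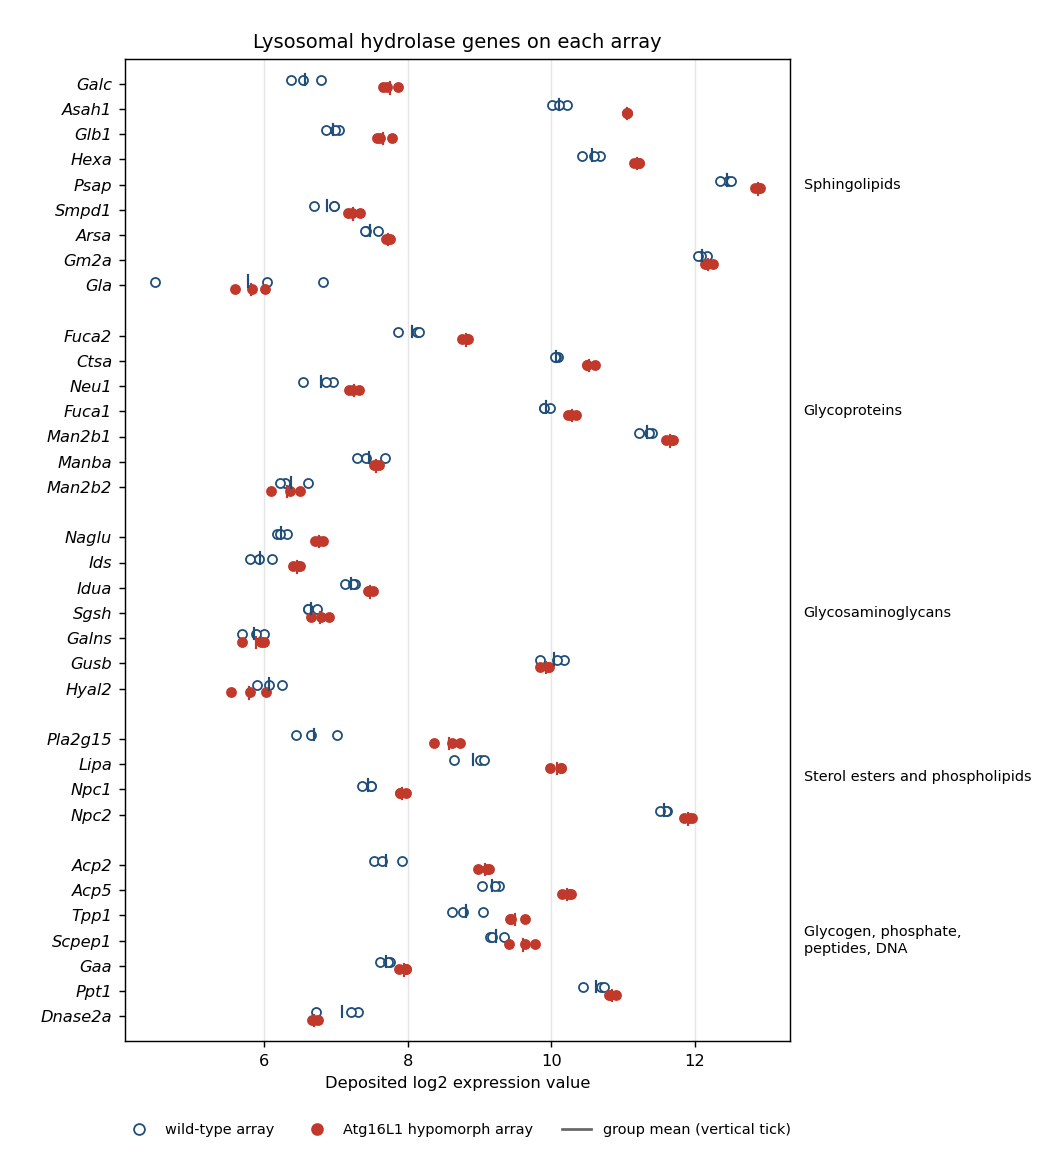
Deposited log2 values of the 34 measured hydrolase genes on every array, grouped by substrate; open points are the 3 wild-type arrays, filled points the 3 hypomorph arrays, and vertical ticks the group means. In 25 genes the filled points all lie to the right of the open points, and Gla shows the widest wild-type spread, from 4.48 to 6.82.

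Probe sets of the same gene did not always move together, which bears on how firmly a gene can be said to have changed. The 34 genes had 62 probe sets, and 20 genes had several. When all 20379 single-gene probe sets were tested one by one, 31 of the 62 were called higher and 1 lower, where 9.95% and 7.73% of all probe sets were. Every probe set was called higher for Acp2, Lipa, Npc2, Pla2g15, Psap and Tpp1. The 3 probe sets of Acp2 changed by 1.38, 1.40 and 1.41. The dimmest of the 3 probe sets of Lipa went from 7.09, 7.32 and 7.19 to 8.22, 8.18 and 8.20. For Pla2g15 the dimmer probe set changed by 1.56, from a wild-type mean of 3.27 that lay below the lower quartile of all probe sets (3.71).

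Man2b1 was the gene whose probe sets were called in opposite directions. The brighter one (1416340_a_at, mean of 11.33 in wild type) rose by 0.33, and the dimmer one (1436781_at) was at 9.26, 8.96 and 8.68 in wild type and at 8.44, 8.07 and 8.17 in the hypomorph, a fall of 1.67-fold (log2 change -0.74, adjusted p = 0.0245 over all probe sets). Its groups did not overlap either. Which of these follows the transcript of the enzyme was not tested, so the direction for Man2b1 is uncertain.

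For 4 genes that did not pass by the brightest probe set, a dimmer one was called higher. Gm2a changed by 0.08 at its bright probe set and by 0.61 at the other, which went from 8.77, 8.70 and 8.84 to 9.28, 9.33 and 9.53. Ppt1 changed by 0.22 and 0.59, Gaa by 0.25 and 0.52, and Gusb by -0.12 and 0.36. The dimmer probe set of Gusb was at 6.46, 6.65 and 6.33 and at 6.85, 6.85 and 6.84.

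The reverse pattern held for Galc, Fuca2, Ids, Neu1 and Fuca1, whose rise was seen at the brightest probe set alone. The other probe sets of Galc (wild-type means of 3.85 and 2.67), of Fuca2 (3.59) and of Ids (2.78 to 3.94) lay near or below the lower quartile of all probe sets, 3.71, and changed by -0.17 to 0.10. Those of Neu1 changed by -0.05 and -0.12. The other probe sets of Fuca1 were well above that level, at 8.50 and 7.19 in wild type, and changed by -0.10 and 0.06 without passing. When the mean over all probe sets stood for a gene, the calls of Fuca1, Fuca2, Ids, Neu1 and Man2b1 were lost (adjusted p from 0.111 to 0.701). Under the same setting Gaa, Gm2a, Ppt1 and Scpep1 were called higher (adjusted p from 0.0122 to 0.0428), so the count was 18.

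**Figure D4:**
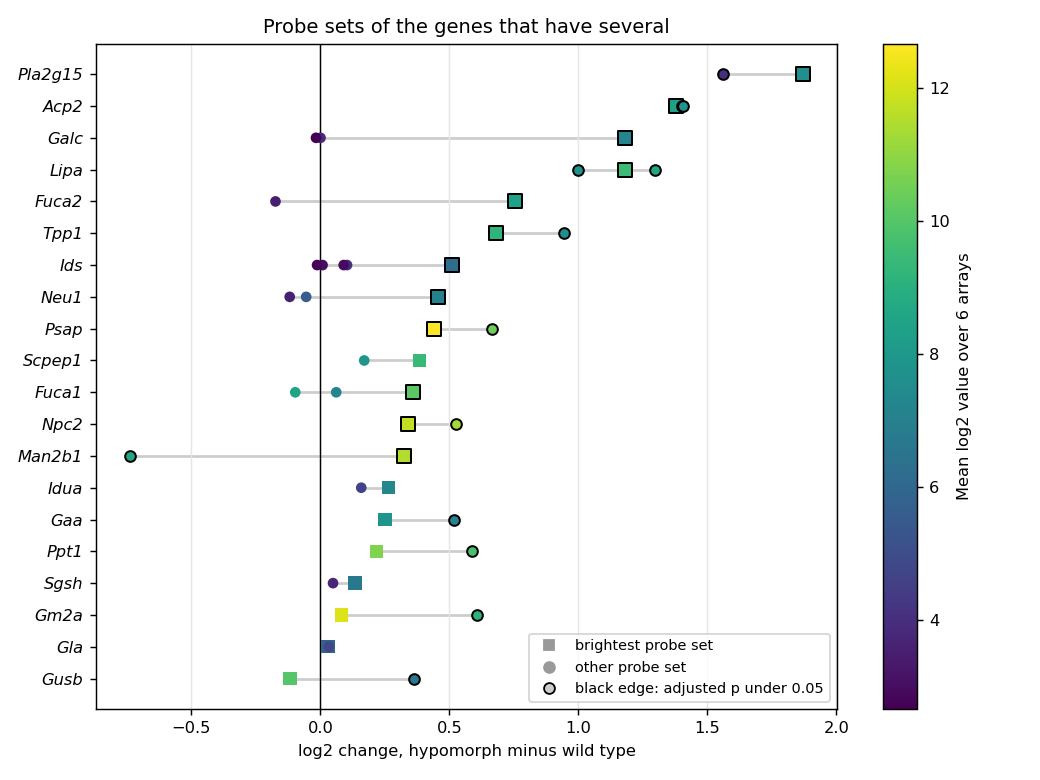
Log2 change, hypomorph minus wild type, of every probe set of the 20 hydrolase genes that have several; squares are the brightest probe set of a gene, circles the others, colour gives the mean log2 value over 6 arrays and a black edge an adjusted p under 0.05 over all probe sets. Acp2 and Lipa agree across 3 probe sets each, whereas Man2b1 runs from -0.74 to 0.33.

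Over the 34 genes the SD between arrays was larger in wild type for 26, with a median of 0.14 against 0.06 in the hypomorph, and the same held for 70.8% of all genes. Wild-type replicate 1 was the lowest wild-type array for 19 of the 34 genes and lay 0.08 below the group mean on average. Hypomorph replicate 2 was the lowest hypomorph array for 21 genes, and replicate 1 was the highest for 19. Wild-type replicate 1 also had the lowest mean of the macrophage markers (8.28) and the highest spike-in signal (9.96).

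Other lysosomal genes were higher as well. In a list of 26 further genes, most but not all of them for lysosomal hydrolases, 16 were measured, 10 rose and 0 fell, with a median of 0.58. Over all genes 9.76% rose and 8.47% fell. All hypomorph arrays lay above all wild-type arrays in 11 of the 16 and below them in 2, against 18.5% and 22.5% of all genes. The 2 were Neu3 and Dnase2b, with low wild-type means of 4.08 and 2.70. The strongest by p were Creg1, a secreted and lysosomal glycoprotein that is not known as a hydrolase (2.76-fold), Hgsnat, which acetylates heparan sulfate for NAGLU to cut (1.88-fold), the chitobiase gene Ctbs (1.93-fold) and Smpdl3a, a relative of acid sphingomyelinase (1.55-fold). Their adjusted p-values were 0.00107, 0.00329, 0.00372 and 0.00481. Of 9 measured genes that sort, export or activate the enzymes, 4 rose and 0 fell, with a median of 0.50.

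These 4 act at different steps. Sort1, the sorting receptor sortilin, was at 7.40, 7.38 and 7.22 in wild type and at 8.63, 8.19 and 8.35 in the hypomorph, a 2.08-fold rise (adjusted p = 0.0031). Cln8, which helps enzymes leave the endoplasmic reticulum, rose 1.76-fold (adjusted p = 0.00137) and M6pr, the small mannose 6-phosphate receptor, rose 1.45-fold (adjusted p = 0.00762). Sumf1, which converts a cysteine in every sulfatase into the catalytic formylglycine, rose 1.41-fold (adjusted p = 0.0117). Of the 5 measured sulfatases in these lists, all substrates of SUMF1, Ids rose, and so did Arsg, arylsulfatase G of the further list, which went from 4.38, 4.81 and 4.44 to 6.07, 5.39 and 5.61 (2.21-fold, adjusted p = 0.0106), and Arsa, Sgsh and Galns did not pass. The spike-in signal was 1.79 lower and the mean of the macrophage markers 1.72 higher in the same arrays.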

How the data were processed

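Splenic CD11c+ cells of 3 wild-type and 3 Atg16L1 hypomorph samples were measured, 1 array each. Bead selection, TRIzol extraction and labelling of total RNA are per the labels' protocols. The authors deposited 1 log2 value per probe set and array, made with Affymetrix Power Tools per the submitters' processing notes. The sources used here do not give its version, the background correction, the summarization or the log base. The base was inferred from the range (1.96 to 14.3), and normalization between arrays from the close array medians (5.65 to 5.71), so a difference in total RNA per cell cannot be seen. The number of arrays limits the precision.

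Genes were named from the platform annotation, whose gene IDs were matched to RefSeq (20350 of 20379 single-gene probe sets). All 12393 genes were fitted in R 4.3.3 with lmFit and eBayes of limma 3.58.1 (two-sided, no covariate, no filter on dim genes), with Benjamini-Hochberg adjustment over all of them and a threshold of 0.05. The script was tested on simulated data. Python 3.11.15 and pandas 2.3.3 made the summaries. Promoter sequences are RefSeq's, for GRCm38.p6.

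The genes, lists and tests were chosen with earlier results of these data known. Values per array are given for the 10 genes of smallest p, those with probe sets of opposite sign and others where useful. Of the 2 lists of further genes, the 4 called genes of smallest p in each are named (none was called lower). Arsg was added after its values were seen. Alternatives tried were averaging the probe sets of a gene, testing each probe set on its own, a filter at the median level, quantile normalization, centring on array medians, a block for the replicate number, array weights, eBayes with trend and robust, the spike-in covariate, a 1.5-fold minimum and leaving out each array.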

Additional observations from a re-analysis of the deposited data

How the results depend on the processing

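The median change of the 34 genes stayed positive, from 0.29 after quantile normalization to 0.44 with the spike-in covariate. Of 19 genes called higher, 10 changed by at least 1.5-fold. With the spike-in covariate limma called 0 of the 34. At an unadjusted p under 0.05 there were 9, of which 8 were among the 19 and the other was Gla, with a change of -3.39. Leaving out 1 array gave 12 to 20 higher and 0 to 1 lower, while 4.44% to 9.55% of all genes were called higher. The number of genes with all hypomorph arrays below all wild-type arrays went from 0 to 1 after quantile normalization or centring, and to 0 to 2 with 1 array left out. In the main setting 22.5% of all genes lay below in this way, and the share under the altered settings was not computed. With fewer arrays in a group, such separation also comes about more easily. Among the 19 called genes the sign changed for 2, Man2b1 with the mean of its probe sets (-0.21), which holds a probe set that fell, and Neu1 with the spike-in covariate (-0.0605; the cause was not tested). Of the 15 others, 9 changed sign under at least 1 alternative, 7 of them with the spike-in covariate (Dnase2a, Gla, Gusb, Hyal2, Man2b2, Manba and Scpep1), and none of these changes passed the threshold there. The filter at the median level removed Galns, Gla, Hyal2 and Ids, and 23 of the 30 others were called, with 21.1% of 6196 genes. Trend and robust fitting called 24, with 11.5% of all genes. Arrays that share a replicate number were not treated as pairs in the main fit. Their deviations from the group means correlated at 0.15, 0.01 and 0.11, against -0.17 to 0.14 for arrays of different numbers. Deviations from a group mean cancel out within the group, so these correlations cannot decide whether the arrays were paired. With the replicate number as a block 15 genes were higher, without Fuca1, Man2b1, Neu1 and Npc2, and over all genes 753 rose and 478 fell, against 1210 and 1050 without the block. Signal over background is not known for these values, so levels near 3 may hold little signal.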
